A study of Mus musculus with 9 samples.

Results

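Integrins and the proteins that tie them to actin were examined in sorted smooth muscle cells of the mouse lung. The members were the protein coding genes of the deposited table with an integrin alpha or beta subunit symbol, together with 20 named focal adhesion genes. This gave 46 genes, 18 alpha subunits, 8 beta subunits and 20 adhesion proteins, of 21049 genes in the table. RNA sequencing covered 9 libraries in 3 groups of 3. The group labelled BSMCs held bronchial smooth muscle cells of genotype Chrm2/Acta2-CreER/R26-GFP, from mice called NVSMC-effector. The group labelled PASMCs held pulmonary arterial smooth muscle cells of genotype Cspg4/Acta2-CreER/R26-GFP, from mice called ASMC-effector. The group labelled SmMCll held total pulmonary smooth muscle cells, venous cells included, of genotype tg-Acta2-GFP. The labels of all 9 libraries name tamoxifen, which activates the CreER or DreER recombinase, in corn oil (20 mg/mL), given over 3 days at a dose of 0.75 mg for each 10 g of weight. The Acta2 promoter, active in smooth muscle and in other contractile cells, was part of every genotype. Each group was its own mouse line, so cell population, line and reporter cannot be told apart in any comparison. The age of the mice and whether replicates came from separate animals are not given in the sources used here.

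An integrin is a pair of one alpha and one beta subunit that spans the membrane, and the pair decides which matrix protein or cell surface ligand is bound. Inside the cell, talins and kindlins bind the beta tail and switch the receptor on, and vinculin, parvins, tensins, zyxin and VASP connect it to actin filaments. In smooth muscle these plaques carry the force of contraction to the matrix around the cell, and integrins that contain the alpha v subunit can also release TGF-beta from its latent form. Leukocytes and platelets use subunits of their own, among them Itgb2, Itgal and Itga2b, so the same gene family also reports on blood cells in a preparation.

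Values below are normalized read counts as deposited, on a linear scale, unless another scale is named. Implied depth, read from the spacing of the values, was 6.39 to 9.33 M reads in BSMCs, 8.92 to 10.02 M in PASMCs and 8.93 to 9.90 M in SmMCll. Smooth muscle markers were read in all 9 libraries, at levels that differed by gene. Myh11, the smooth muscle myosin heavy chain and the highest of the list, lay between 9171 and 12498, and Tagln between 242 and 664. Lmod1 was 3430 to 3668 in BSMCs, 2827 to 3251 in PASMCs and 1267 to 1750 in SmMCll. The labels of the first 2 groups did not match most airway markers: Hhip was 2913 to 3491 in BSMCs and 7414 to 7798 in PASMCs, and Lgr6 was 2088 to 2601 and 4116 to 4848. At an adjusted p under 0.05 by limma, 6 of 8 tested airway genes were higher in PASMCs and 0 lower. Actg2 (2798 ± 469.8 in BSMCs, 2348 ± 147.4 in PASMCs) and Foxf1 (2116 ± 204.7 and 1787 ± 136.0) leaned the other way without passing. Chrm3 was untested, at 0 to 8 in all libraries. The summed level of 9 airway smooth muscle genes was 1455 ± 33.6 CPM (the gene values as a part of the library total, scaled alike in every library) in BSMCs, 2345 ± 17.6 in PASMCs and 1461 ± 38.3 in SmMCll (SD, n = 3 each). Arterial smooth muscle markers went both ways: of 7 genes Gja4 was lower in PASMCs (1607 ± 265.2 in BSMCs, 723.7 ± 110.6 in PASMCs), Gja5 (230.0 ± 64.4 and 357.7 ± 48.2) and Jag1 (247.3 ± 33.6 and 592.7 ± 77.2) were higher, and their summed level was 1455 to 1775 CPM in BSMCs and 1450 to 1609 in PASMCs. Group names therefore stand for libraries as labelled throughout, and a direction is a direction between labels. Without the authors' scaling the median log2 fold change of all genes moved from 0.05 to 0.27 for PASMCs against BSMCs and from 0.05 to 0.22 for SmMCll against BSMCs. To be tested, a gene had to reach 10 in 3 or more libraries, and 44 of the 46 members did. Itgad, an alpha subunit of leukocytes, read 1, 4 and 3 in BSMCs, 0, 1 and 0 in PASMCs and 0 in all 3 SmMCll libraries, and Fermt1, the kindlin of epithelial cells, was listed at 0 in BSMCs, at 0 to 7 in PASMCs and at 6 to 43 in SmMCll. Both were left untested. Itgae, Itgam and Itgax passed with values of at least 10 in BSMCs only, so their presence among the tested genes already required a difference. The same holds for Itgb7, which outside BSMCs was at 4 to 10 in SmMCll and 0 to 5 in PASMCs and so passed only through BSMCs.

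The CArG box, the site of serum response factor in smooth muscle promoters, was searched on both strands in the RefSeq promoter windows of build GRCm38.p6, which run from 250 bases before to 50 bases after the gene start. Only 32 of the 46 members had a window, so a check over the whole set is void, and a match is a description of letters. The box was found in 3 members, Vcl, Fermt2 and Itgb6, while 535 of 32851 windows of all genes held it (1.63%). The first count is of genes, each taken over all its windows, and the second is of windows, so the units differ. The stretches are shown because these are an actin linker, an integrin activator and an epithelial integrin subunit with different patterns across the groups. They lie at chr14:20929156-20929195 on the plus strand for Vcl, 227 bases before the gene start, at chr14:45530245-45530284 on the minus strand for Fermt2, 204 bases before it, and at chr2:60673719-60673758 on the minus strand for Itgb6, 50 bases before it. Capitals mark the box, and each is written 5′ to 3′ on the strand of the gene.
Vcl: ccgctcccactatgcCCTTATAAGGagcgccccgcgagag
Fermt2: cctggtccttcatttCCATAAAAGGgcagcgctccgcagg
Itgb6: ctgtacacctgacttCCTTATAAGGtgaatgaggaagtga
Vcl and Itgb6 shared the same letters in the box, and the Fermt2 box differed from theirs. Windows were not in the table for Lims2, Parva, Ptk2, Pxn, Tgfb1i1, Tln2, Itga6, Itga7, Itgad, Itgae, Itgal, Itgb2, Itgb3 and Itgb4.

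Per kilobase of exon, the integrin RNA of all 3 groups was led by the same few subunits. Itgb1, the common partner of most matrix receptors, averaged 1618 normalized reads per kb over the 9 libraries, and Itgb5, a partner of alpha v, averaged 1253. Among alpha subunits Itga8, which pairs with beta 1 and binds nephronectin, averaged 1104 reads per kb. Itga5, the fibronectin receptor subunit, followed at 823.5 and Itga9, which binds tenascin C and other ligands, at 460.2. The laminin receptor subunits Itga7 and Itga3 averaged 277.3 and 222.4 reads per kb, Itgav 131.2, and Itga1, a collagen receptor subunit, 109.1. Itgb1 made up 49.2% ± 2.78 of the summed beta subunit level per kb in BSMCs, 51.3% ± 0.54 in PASMCs and 53.4% ± 0.48 in SmMCll (SD, n = 3 each), and Itgb5 37.7% ± 2.38, 41.1% ± 0.67 and 40.35% ± 0.69. Itga8 made up 33.7% ± 5.05 of the summed alpha subunit level in BSMCs, 31.4% ± 0.57 in PASMCs and 35.7% ± 2.89 in SmMCll. The BSMCs shares of Itga8 overlapped with both other groups, and those of PASMCs lay just below those of SmMCll. Itga9 did not overlap between any of them: its share was 12.8% ± 1.361 in BSMCs, 17.8% ± 0.26 in PASMCs and 9.65% ± 1.15 in SmMCll. Itgb3 took 3.17% ± 1.10, 6.22% ± 1.13 and 3.78% ± 0.34 of beta subunit RNA. Itgb2, the leukocyte beta subunit, took 6.14% ± 0.30 in BSMCs, 0.0987% ± 0.044 in PASMCs and 0.165% ± 0.065 in SmMCll.

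**Figure D1:**
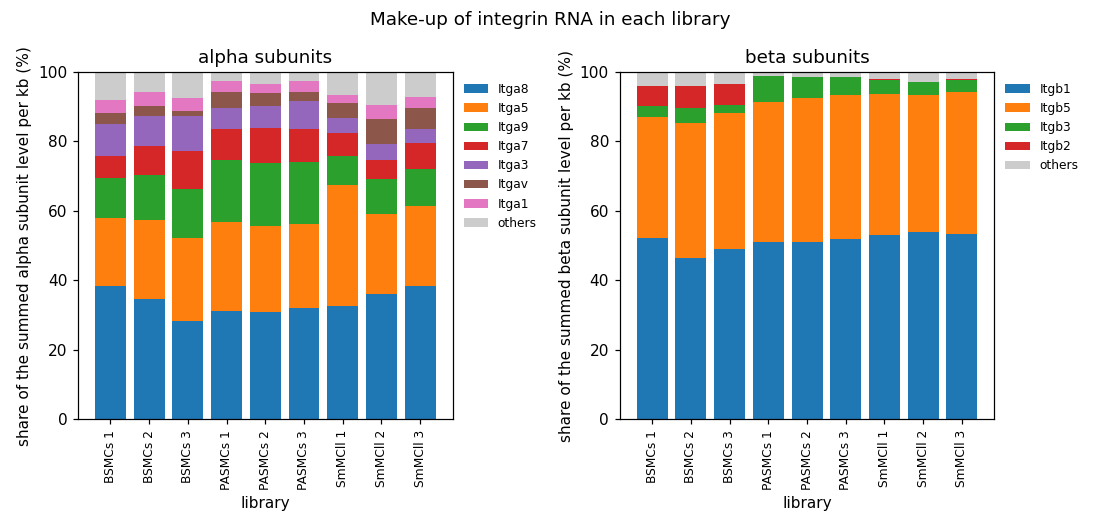
Stacked bars give, for each of the 9 libraries, the share in percent of the summed alpha subunit level per kb (left) and beta subunit level per kb (right). Itga8 and Itga5 fill most of the alpha bars and Itgb1 and Itgb5 most of the beta bars, Itga9 is widest in the PASMCs libraries (17.8% on average), and Itgb2 is visible in the BSMCs libraries only (6.14% on average).

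Gene positions below are in build mm39, as deposited. The most abundant subunits were not called in the main fit of any comparison, though they were called in some alternatives. Itgb1 (chr8:129412135-129459681) had normalized read counts of 7310, 6333 and 7249 in BSMCs, 6739, 6084 and 6477 in PASMCs and 6252, 5988 and 6998 in SmMCll. All 3 groups overlapped, and the 95% intervals of the log2 fold change were -0.32 to 0.10, -0.22 to 0.21 and -0.33 to 0.09 for PASMCs against BSMCs, SmMCll against PASMCs and SmMCll against BSMCs. Itgb5 (chr16:33650035-33769708) read 4276, 4591 and 5082 in BSMCs, 4635, 4309 and 4491 in PASMCs and 4181, 3827 and 4666 in SmMCll, also with overlap everywhere and with intervals of -0.28 to 0.18, -0.32 to 0.14 and -0.37 to 0.09 in the same order. Itga8 (chr2:12111443-12306733) read 6752, 8923 and 5389 in BSMCs, 10147, 8994 and 9087 in PASMCs and 7983, 6855 and 9061 in SmMCll. The 3 PASMCs libraries lay just above the highest BSMCs library, and the log2 fold change of 0.45 (SE 0.16) missed the threshold with an adjusted p of 0.0656 in the limma fit. Without BSMCs replicate 2 Itga8 was called higher in PASMCs (log2 0.64, adjusted p = 0.0038 by limma) and SmMCll (0.39, 0.028) than in BSMCs. Array weights also called it higher in PASMCs than in BSMCs (0.49, 0.0396). After quantile normalization Itgb1 was called lower in PASMCs (-0.28, 0.0261) and SmMCll (-0.38, 0.00226) than in BSMCs, and Itgb5 in SmMCll (-0.33, 0.00567). Itgb1, Itgb5 and Itga8 had a mean of at least 1 implied read per exonic base, as 235 of the 15647 tested genes did. The median ratio of variance to mean between replicates fell with density. It was 14.4 in genes with 0.2 to 0.4 reads per base, 4.48 with 1.0 to 1.5 and 0.50 beyond that. Itgb1 (1.64 reads per base) was in the densest range, beyond 1.5, which held 28 tested genes. Itga8 (1.14 reads per base) and Itgb5 (1.27) lay in the range of 1.0 to 1.5. Itga8 still spread widely in BSMCs (7021 ± 1782, SD). The part of density in the values of Itgb1, Itgb5 and Itga8 was not tested.

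**Figure D2:**
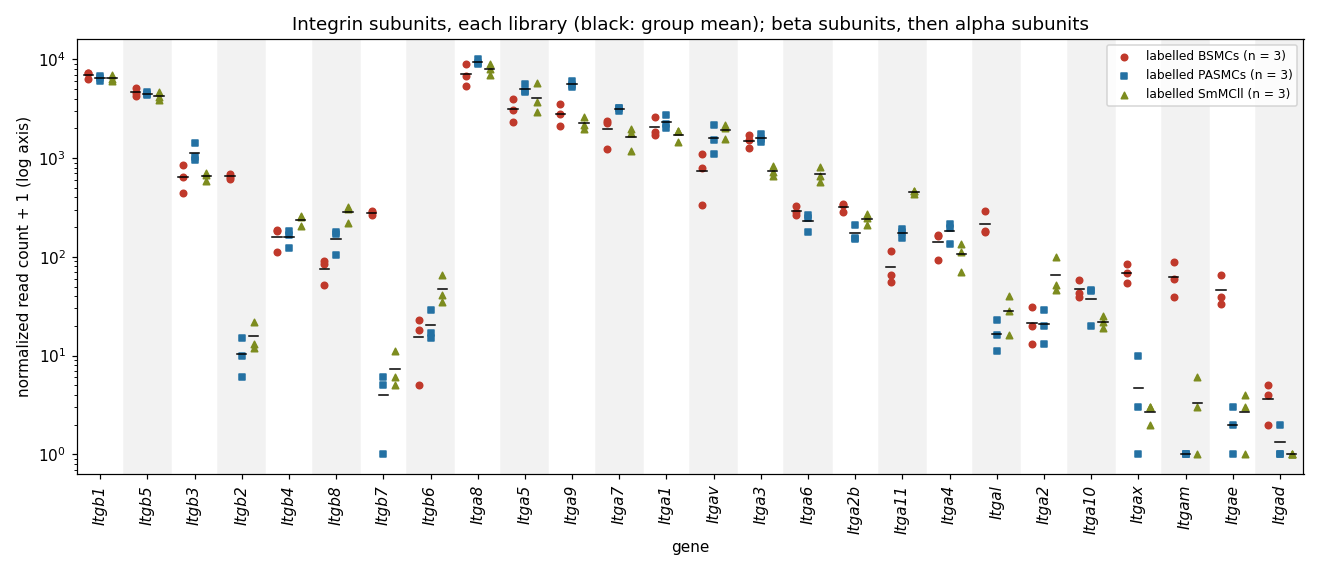
Points give the normalized read count plus 1, on a log axis, of each integrin subunit in each library, and black bars the group means (n = 3). Itgb1, Itgb5 and Itga8 sit at the top with the 3 groups close together, Itga9 is high in the PASMCs libraries, and Itgb2, Itgb7, Itgal, Itgax, Itgam and Itgae are high in the BSMCs libraries only.

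In libraries labelled PASMCs against those labelled BSMCs, the matrix integrin subunits Itga9, Itga11, Itgav, Itga5, Itga7, Itgb3 and Itgb8 were higher, as were the actin linkers Vcl, Tln1, Tns1, Tns2, Tns3 and Parva. The leukocyte subunits Itgb2, Itgb7, Itgal, Itgam, Itgax and Itgae, the platelet subunit Itga2b and the blood cell kindlin Fermt3 were lower, together with Vasp, Lims2 and Parvb. At an adjusted p under 0.05 by limma 24 of 44 tested members were called, 13 higher and 11 lower in PASMCs. The 11 include Itgae, Itgam, Itgax and Itgb7, which passed the filter only through BSMCs. Over all genes 22.1% were called in this comparison, 13.2% higher and 8.88% lower. The median log2 fold change of the tested members was -0.02, against 0.05 for all genes. Groups did not overlap for 25 members, 13 higher and 12 lower, and for 35.2% of all genes.

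Itga9 (chr9:118435758-118730071) read 2094, 3493 and 2800 in BSMCs, 6068, 5474 and 5194 in PASMCs and 2137, 1989 and 2609 in SmMCll. Every PASMCs library lay above every library of the other groups. The level was 2.03-fold higher in PASMCs than in BSMCs (log2 fold change 1.02, SE 0.17, adjusted p = 0.00155 by limma). Itga11 (chr9:62585108-62691264), a receptor subunit for fibrillar collagen, read 113, 55 and 64 in BSMCs, 176, 190 and 153 in PASMCs and 460, 431 and 460 in SmMCll. The 3 groups formed 3 steps without overlap, and PASMCs were 2.32-fold above BSMCs (log2 1.22, SE 0.26, adjusted p = 0.00641). Itgav, the subunit shared by the vitronectin receptors and the integrins that activate TGF-beta, read 783, 1094 and 335 in BSMCs, 2142, 1528 and 1103 in PASMCs and 1565, 1999 and 2140 in SmMCll. The lowest PASMCs library only just exceeded the highest BSMCs library, and the fitted difference was 1.22 (SE 0.36, adjusted p = 0.0347). Itga5 (chr15:103252713-103275190) read 2313, 3944 and 3045 in BSMCs, 5555, 4798 and 4608 in PASMCs and 5715, 2906 and 3679 in SmMCll. PASMCs lay above BSMCs without overlap, by 1.64-fold (log2 0.71, SE 0.23, adjusted p = 0.0478), while SmMCll overlapped with both. Itga7, a laminin receptor subunit of muscle, read 1230, 2398 and 2239 in BSMCs, 3176, 3215 and 3017 in PASMCs and 1783, 1166 and 1969 in SmMCll. Again all PASMCs libraries were above all others, at 1.67-fold the BSMCs level (log2 0.74, SE 0.24, adjusted p = 0.0496).

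Of the beta subunits, Itgb3, the partner of Itgav in the vitronectin receptor and of Itga2b on platelets, read 646, 840 and 444 in BSMCs, 1427, 1020 and 951 in PASMCs and 712, 581 and 677 in SmMCll. PASMCs were highest without overlap, 1.79-fold above BSMCs (log2 0.84, SE 0.23, adjusted p = 0.0234). Itgb8, which pairs with Itgav to activate TGF-beta, read 51, 83 and 90 in BSMCs, 168, 103 and 178 in PASMCs and 221, 315 and 304 in SmMCll. The groups stood in that order without overlap, and PASMCs exceeded BSMCs 1.99-fold (log2 0.99, SE 0.29, adjusted p = 0.0327). Itgb4, the hemidesmosome subunit, and Itgb6, an epithelial partner of Itgav, were not called here, with log2 differences of -0.01 (SE 0.25) and 0.61 (SE 0.59). Beside the higher matrix subunits, 6 of 8 tested airway smooth muscle markers and 7 of 11 fibroblast markers were higher in PASMCs, and the summed fibroblast level was 1513 to 1916 CPM in BSMCs and 2424 to 2774 in PASMCs. Their part in the higher subunits was not tested.

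The leukocyte integrins and the leukocyte markers were both far higher in BSMCs than in the other groups. Itgb2 (chr10:77366086-77401542), the beta subunit shared by LFA-1 and Mac-1, read 609, 649 and 693 in BSMCs, 14, 9 and 5 in PASMCs and 21, 12 and 11 in SmMCll. BSMCs were far above both other groups, and PASMCs were 67.4-fold lower (log2 fold change -6.07, SE 0.39, adjusted p = 2.1e-06). Itgb7, the beta subunit of gut homing lymphocyte receptors, read 287, 280 and 266 in BSMCs, 4, 5 and 0 in PASMCs and 10, 4 and 5 in SmMCll. The difference was -6.49 on the log2 scale (SE 0.65, adjusted p = 4.46e-05), for a gene that passed the filter only through BSMCs. Itgal, the alpha chain of LFA-1, read 177, 287 and 183 in BSMCs, 15, 22 and 10 in PASMCs and 15, 27 and 39 in SmMCll, a difference of -3.73 (SE 0.42, adjusted p = 0.000103). Itgax and Itgae, subunits of myeloid cells and of lymphocytes at epithelia, were at 53 to 83 and 32 to 65 in BSMCs and at 0 to 9 and 0 to 2 in PASMCs, and Itgam, the alpha chain of Mac-1, was at 38 to 88 in BSMCs and listed at 0 in all 3 PASMCs libraries. Fermt3, the kindlin of blood cells, read 384, 364 and 549 in BSMCs, 70, 86 and 93 in PASMCs and 145, 127 and 144 in SmMCll. Its difference was -2.35 (SE 0.22, adjusted p = 2.72e-05). The size of these differences depended on the processing: over the alternatives Itgb2 ran from -6.39 to -5.12, Itgax ran from -5.29 to -2.55, Itgae from -4.96 to -2.28, Itgam from -6.18 to -2.77 and Itgb7 from -6.96 to -4.49.

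Beside these genes, the summed level of 18 leukocyte markers was 1394 to 1972 CPM in BSMCs, 290.0 to 303.0 in PASMCs and 278.3 to 358.8 in SmMCll, and 17 of the 18 were lower in PASMCs than in BSMCs. The other was Lyz2, lysozyme of macrophages and some epithelial cells, at 1939 to 2798 in BSMCs and 1670 to 1843 in PASMCs. Ptprc, the pan-leukocyte phosphatase CD45, read 760, 569 and 391 in BSMCs and was listed at 0 in all PASMCs libraries, as were Cd3e, Ms4a1, Nkg7 and Spi1. In SmMCll Ptprc read 0, 4 and 3. The 6 leukocyte alpha subunits and beta subunits that were called, with Itgad and Fermt3, summed to 1607, 1737 and 1915 in BSMCs, 106, 134 and 108 in PASMCs and 196, 180 and 201 in SmMCll. Within BSMCs the sums did not share an order, since replicate 2 had the lowest marker level and not the lowest integrin sum. The leukocyte share of the BSMCs preparations was not measured apart from RNA, and its part in any difference between BSMCs and another group was not tested. In bulk samples, fewer cells of a type and less RNA per cell cannot be told apart. Itga2b, the alpha subunit of the platelet fibrinogen receptor, read 285, 332 and 342 in BSMCs, 155, 209 and 150 in PASMCs and 269, 211 and 245 in SmMCll. PASMCs were lowest without overlap (log2 fold change against BSMCs -0.91, SE 0.20, adjusted p = 0.00732). The summed level of platelet markers was 88.6 to 176.1 CPM in BSMCs and 12.7 to 29.3 in PASMCs, and 7 of 9 tested were lower in PASMCs. Pf4, platelet factor 4, read 481, 213 and 468 against 26, 9 and 14.

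**Figure D3:**
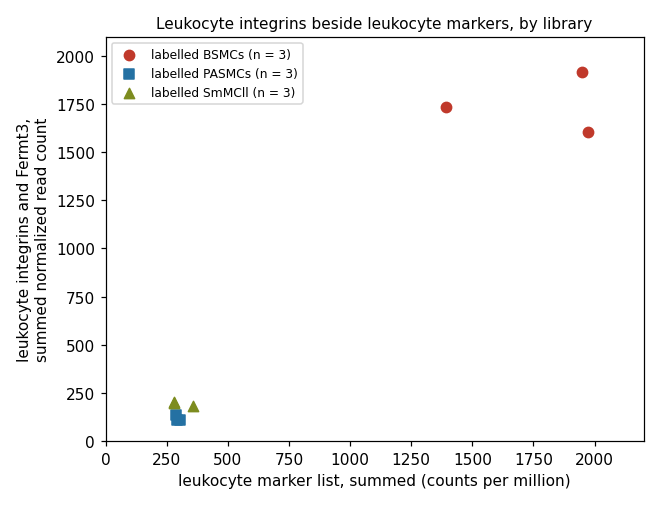
Each point is 1 library, with the summed level of 18 leukocyte markers in CPM on the horizontal axis and the summed normalized read count of Itgal, Itgam, Itgax, Itgad, Itgae, Itgb2, Itgb7 and Fermt3 on the vertical axis. The 3 BSMCs libraries lie at 1607 to 1915 reads and the other 6 at 106 to 201.

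Among the adhesion proteins, Tln1 (chr4:43531519-43562691), the talin that activates integrins and links them to actin, read 3741, 3867 and 4907 in BSMCs, 7595, 6879 and 6972 in PASMCs and 5351, 4715 and 6298 in SmMCll. PASMCs were above every other library and 1.73-fold above BSMCs (log2 0.79, SE 0.13, adjusted p = 0.00148 by limma). Vcl (chr14:20979466-21083744), vinculin, which binds talin under load, read 1137, 2771 and 1217 in BSMCs, 3835, 3257 and 2987 in PASMCs and 2280, 2317 and 2604 in SmMCll. BSMCs replicate 2 lay far above the other BSMCs libraries and still below all PASMCs libraries, and the difference was 1.09 (SE 0.27, adjusted p = 0.0147). Between SmMCll and BSMCs Vcl was not called (log2 0.61, SE 0.27, adjusted p = 0.0854), and without BSMCs replicate 2 it was (adjusted p = 9.3e-05). Of the exon bases of Vcl, 25.5% are shared with Ap3m1, and the strand setting of the counting is not given in the sources used here. The 3 tensins, adaptors that bind the beta tail, were all higher in PASMCs. Tns2 read 2101, 4051 and 2681 in BSMCs, 5149, 5088 and 4846 in PASMCs and 4102, 3941 and 4584 in SmMCll, with PASMCs 1.77-fold above BSMCs (log2 0.83, SE 0.19, adjusted p = 0.00981). Tns1 read 6076, 5820 and 8305 in BSMCs, 10223, 8234 and 11179 in PASMCs and 4398, 6623 and 5460 in SmMCll. The highest BSMCs library exceeded the lowest PASMCs library, so these groups overlapped although the difference of 0.56 was called (SE 0.17, adjusted p = 0.0408). Tns3 read 295, 223 and 179 in BSMCs, 402, 324 and 472 in PASMCs and 641, 977 and 898 in SmMCll, another series of 3 steps without overlap (log2 0.79, SE 0.23, adjusted p = 0.0311). Parva, alpha-parvin, the partner of integrin-linked kinase, was 2790 ± 647.2 in BSMCs and 4039 ± 341.0 in PASMCs (SD, n = 3 each), a difference of 0.55 (SE 0.14, adjusted p = 0.0183).

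Of the other adhesion proteins that were lower in PASMCs, Vasp and Lims2 differed by less than Parvb. Vasp, which extends actin filaments at adhesions, read 2270, 1998 and 2511 in BSMCs, 1656, 1573 and 1731 in PASMCs and 1125, 959 and 1038 in SmMCll. The groups fell in that order without overlap, and PASMCs were below BSMCs (log2 -0.45, SE 0.12, adjusted p = 0.0241). Lims2, a PINCH adaptor of integrin-linked kinase, was 3019 ± 403.1 in BSMCs and 2285 ± 59.2 in PASMCs (log2 -0.39, SE 0.13, adjusted p = 0.0447). Parvb, beta-parvin, read 101, 31 and 154 in BSMCs, 18, 26 and 23 in PASMCs and 25, 29 and 17 in SmMCll. BSMCs replicate 2 was close to the other groups, and the difference was -1.79 (SE 0.53, adjusted p = 0.0327) with it and -2.45 without it.

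Of the 24 calls, Itga9, Itga11, Tln1, Tns2, Fermt3, Itgb2 and Itgal held in every alternative. Itgb7, Itgam, Itgax and Itgae are left out here, since the filter had fixed their difference. The remaining 13 each missed the threshold somewhere, without a change of sign. Without BSMCs replicate 1, 11 of them were lost and 13 members were called in all (adjusted p of the lost 0.0556 to 0.17), Vcl, Itgav, Itga5, Itga7, Itgb3, Itgb8, Tns1, Parva, Vasp, Lims2 and Parvb. Without PASMCs replicate 1 the same 11 and Tns3 were lost (0.0648 to 0.152), with 12 called. Without BSMCs replicate 2 Tns1 was lost (0.0703), without BSMCs replicate 3 8 calls (0.0534 to 0.13), without PASMCs replicate 2 8 calls (0.0507 to 0.135) and without PASMCs replicate 3 7 calls (0.0627 to 0.117). Leaving out SmMCll replicates 1, 2 and 3, which enter only through the shared spread, lost 3, 2 and 7 calls (0.0502 to 0.0689, 0.0522 to 0.0567 and 0.051 to 0.0671). With only the 2 groups compared in the fit, 15 members were called, and Itgav, Itgb3, Itgb8, Itga7, Tns3, Vasp, Lims2, Parva and Parvb were lost (0.0519 to 0.087). Other scalings also ended calls. On implied reads without scaling Itga2b (0.0809), Itgav, Itga5, Vasp, Lims2, Parva and Parvb were lost (0.0528 to 0.351), and 10 members were higher and 7 lower. The log2 fold change of Vasp shrank to -0.21 there (adjusted p = 0.27 by limma) and that of Lims2 to -0.16 (0.351). Itga5 and Tns1 were lost after quantile normalization (0.0637 and 0.0806) and after division by the library total (0.054 and 0.0677), the first with Tns3 (0.0521) and the second with Itga7 (0.0527). Array weights lost Tns3 (0.0716), and leaving out the filter lost Lims2 (0.052).

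**Figure D4:**
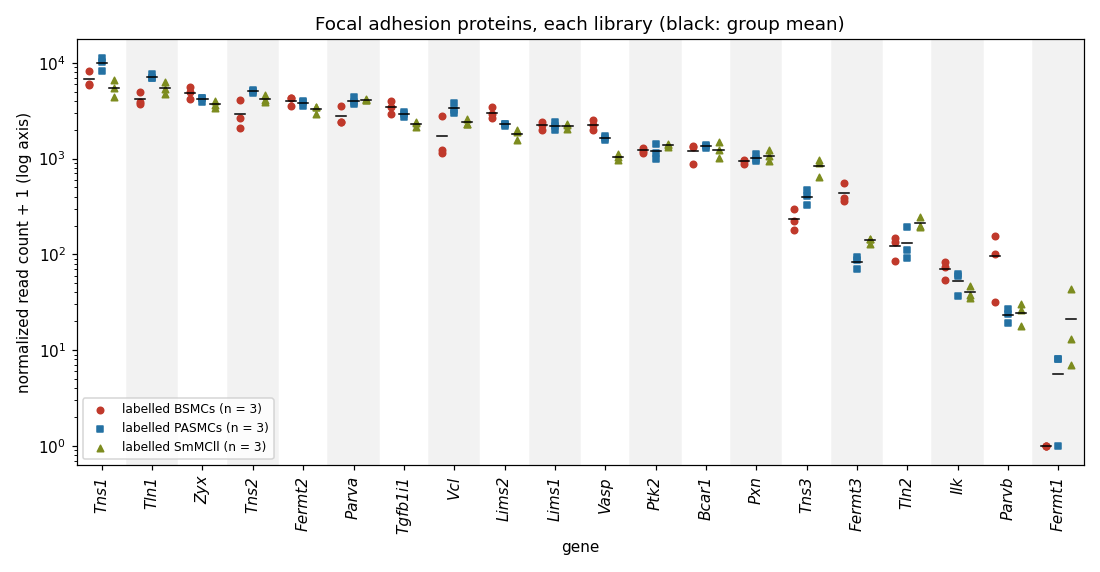
Points give the normalized read count plus 1, on a log axis, of each of the 20 focal adhesion genes in each library, and black bars the group means (n = 3). Tln1, Tns2 and Vcl are highest in the PASMCs libraries, Tns3 climbs from BSMCs to SmMCll, Vasp falls in the same order, and Lims1, Pxn and Bcar1 overlap across groups.

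In libraries labelled SmMCll against those labelled PASMCs, the subunits that had been highest in PASMCs were lower: Itga9, Itga7 and Itgb3, with Itga3, Tns1 and Vasp. Itga6, Itga11, Itga2, Tns3 and Fermt3 were higher. In all, 11 of 44 tested members were called by limma, 5 higher and 6 lower in SmMCll. Over all genes 16.2% were called, 9.39% higher and 6.83% lower, and the median log2 fold change was -0.05 for the members and 0.03 for all genes. Groups did not overlap for 9 members that were higher and 14 that were lower, and for 40.5% of all genes. This comparison shares the PASMCs libraries with the one before, so the lower Itga9, Itga7, Itgb3 and Tns1 rest partly on the same high values.

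Itga9 was 2.496-fold lower in SmMCll than in PASMCs (log2 -1.32, SE 0.17, adjusted p = 0.000342), and the highest SmMCll library, at 2609, was far below the lowest PASMCs library, at 5194. Itga3 (chr11:94935300-94967627), a laminin receptor subunit, read 1273, 1696 and 1521 in BSMCs, 1541, 1440 and 1750 in PASMCs and 820, 662 and 728 in SmMCll. BSMCs and PASMCs overlapped, and SmMCll lay below both, 2.14-fold below PASMCs (log2 -1.10, SE 0.14, adjusted p = 0.000361). Itga7 was 1.96-fold lower (log2 -0.97, SE 0.24, adjusted p = 0.0179) and Itgb3 1.70-fold lower (log2 -0.77, SE 0.23, adjusted p = 0.0396). Itga6 (chr2:71575960-71688760), a laminin receptor subunit of epithelia, endothelium and other cells, read 286, 325 and 266 in BSMCs, 248, 264 and 177 in PASMCs and 575, 816 and 659 in SmMCll. SmMCll were above all other libraries and 2.98-fold above PASMCs (log2 1.57, SE 0.20, adjusted p = 0.00029). Itga11 was 2.60-fold higher in SmMCll (log2 1.38, SE 0.26, adjusted p = 0.00309). Itga2, a collagen receptor subunit, read 30, 19 and 12 in BSMCs, 19, 28 and 12 in PASMCs and 51, 98 and 45 in SmMCll, low in every group and highest in SmMCll (log2 1.66, SE 0.48, adjusted p = 0.0354). Itgb8 had a log2 difference of 0.92 (SE 0.29) without overlap and missed the threshold at an adjusted p of 0.053.

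Of the adhesion proteins, Tns1 was 1.81-fold lower in SmMCll than in PASMCs (log2 -0.85, SE 0.17, adjusted p = 0.00552) and Vasp 1.59-fold lower (log2 -0.67, SE 0.12, adjusted p = 0.0027). Tns3 was 2.09-fold higher (log2 1.06, SE 0.23, adjusted p = 0.0078). Tensins thus moved in both directions, Tns2 without a call (log2 -0.26, SE 0.19). Fermt3 was 1.67-fold higher (log2 0.74, SE 0.22, adjusted p = 0.0399), beside 11 leukocyte markers that were higher and 1, Lyz2, that was lower. None of the 6 leukocyte subunits was called between these groups, with log2 differences from -0.25 (Itgax) to 1.39 (Itgam). Tln1 and Vcl did not overlap and were not called, with differences of -0.40 (SE 0.13, adjusted p = 0.0601) and -0.48 (SE 0.27, adjusted p = 0.288). Markers of other lung cells also differed between these groups. The summed level of 11 fibroblast markers was 2424 to 2774 CPM in PASMCs and 4301 to 4767 in SmMCll, that of 8 mesothelial markers 36.7 to 59.3 and 661.4 to 827.1, and that of 12 endothelial markers 1007 to 1230 and 1564 to 1937. By gene, 5 of 11 fibroblast, 8 of 8 mesothelial and 6 of 12 endothelial markers were higher in SmMCll. None of these lists had a marker at 0 in a whole group, and their part in the higher Itga6, Itga11, Itga2 and Tns3 was not tested.

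Itga9, Itga3, Itga6, Itga11, Tns1, Tns3 and Vasp held in every alternative, and Itgb3, Itga7, Itga2 and Fermt3 did not. Fermt3 was lost without any single PASMCs or SmMCll library (adjusted p 0.0569 to 0.142). Itgb3 was lost without PASMCs replicate 1 (0.161), PASMCs replicate 2 (0.0772) and each SmMCll replicate (0.0785, 0.143 and 0.0982), Itga7 without PASMCs replicate 1 (0.0562), PASMCs replicate 2 (0.0628) and SmMCll replicate 2 (0.0847), and Itga2 without PASMCs replicates 1 and 3 (0.0859 and 0.13) and each SmMCll replicate (0.078, 0.161 and 0.06). With only the 2 groups compared in the fit, 22 members were called in place of 11, and Vcl, Tln1, Tns2, Tgfb1i1, Lims2, Itgb8, Itgb4, Itgb6, Itga1, Itga4 and Tln2 were those gained. Fermt3 was also lost after quantile normalization (0.097) and division by the library total (0.0643), and all 4 were lost on implied reads (0.0507 to 0.147). Without PASMCs replicate 1 or SmMCll replicate 2 the count was 7, and without BSMCs replicate 2 it was 16.

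In libraries labelled SmMCll against those labelled BSMCs, Itga11, Itgb8, Itgav, Itga6, Itga2, Itgb6 and the adhesion genes Tns3, Tns2, Tln1 and Parva were higher. Itga3, Vasp, Lims2, Tgfb1i1, Zyx and Parvb were lower, as were the leukocyte genes Itgb2, Itgb7, Itgal, Itgam, Itgax, Itgae and Fermt3. The count was 23 of 44 tested members, 10 higher and 13 lower. The 13 include Itgae, Itgam, Itgax and Itgb7, which passed the filter only through BSMCs, so their difference was fixed by it. Over all genes 41.9% were called, 23.7% higher and 18.2% lower, and the median log2 fold change was -0.18 for the members and 0.05 for all genes. Groups did not overlap for 11 members that were higher and 17 that were lower, and for 50.5% of all genes. Both groups here also entered the comparisons above.

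Itga11 had the largest fold among the called members outside the leukocyte genes, 6.05-fold higher in SmMCll than in BSMCs (log2 2.60, SE 0.26, adjusted p = 2.12e-05 by limma). Itgb8 was 3.78-fold higher (log2 1.92, SE 0.29, adjusted p = 0.000408) and Itgav 2.85-fold higher (log2 1.51, SE 0.36, adjusted p = 0.00684), so both chains of the alpha v beta 8 integrin stood above BSMCs in the 2 other groups. Itgb6 read 17, 4 and 22 in BSMCs, 16, 28 and 14 in PASMCs and 34, 65 and 40 in SmMCll. SmMCll lay above the other libraries at a low level (log2 1.84, SE 0.59, adjusted p = 0.0263), and without BSMCs replicate 2 the difference was 1.16 with an adjusted p of 0.053. Itga6 was 2.32-fold higher (log2 1.21, SE 0.20, adjusted p = 0.000698) and Itga2 3.09-fold higher (log2 1.63, SE 0.48, adjusted p = 0.0188). Itga3 was 2.02-fold lower (log2 -1.02, SE 0.14, adjusted p = 0.000242). Itga9, Itga7 and Itgb3, all called in both comparisons with PASMCs, had intervals of -0.67 to 0.08, -0.76 to 0.30 and -0.43 to 0.57 here.

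Tns3 was 3.62-fold higher in SmMCll than in BSMCs (log2 1.85, SE 0.23, adjusted p = 0.000104) and Parva 1.502-fold higher (log2 0.59, SE 0.14, adjusted p = 0.00727). Tns2 and Tln1 were called with overlapping groups, at 0.57 (SE 0.19, adjusted p = 0.0306) and 0.39 (SE 0.13, adjusted p = 0.0333). Vasp was 2.16-fold lower (log2 -1.11, SE 0.12, adjusted p = 4.2e-05), the lowest adjusted p among the adhesion proteins. Lims2 read 2926, 2670 and 3460 in BSMCs, 2320, 2217 and 2319 in PASMCs and 1879, 1574 and 1973 in SmMCll. This was a descent without overlap, and SmMCll were 1.67-fold below BSMCs (log2 -0.74, SE 0.13, adjusted p = 0.000872). Tgfb1i1, also known as Hic-5, a paxillin relative of smooth muscle, read 3470, 2894 and 4010 in BSMCs, 2918, 2732 and 3053 in PASMCs and 2349, 2134 and 2408 in SmMCll. SmMCll lay below all other libraries (log2 against BSMCs -0.58, SE 0.13, adjusted p = 0.00374). Zyx, the LIM protein of actin stress fibres, read 4913, 4145 and 5611 in BSMCs, 4288, 3896 and 4269 in PASMCs and 3638, 3381 and 4009 in SmMCll, with a difference of -0.40 against BSMCs (SE 0.12, adjusted p = 0.0199). The leukocyte genes repeated their pattern, beside all 18 leukocyte markers lower. Itgb2 was at -5.43 (SE 0.39, adjusted p = 2.11e-06 by limma), Itgal at -3.01 (SE 0.42, adjusted p = 0.000226) and Fermt3 at -1.61 (SE 0.22, adjusted p = 0.000195). Itgb7, which passed the filter only through BSMCs, was at -5.33 (SE 0.65, adjusted p = 8.86e-05). Fibroblast markers were at 1513 to 1916 CPM in BSMCs against 4301 to 4767 in SmMCll, with 7 of 11 genes higher, and mesothelial markers at 83.4 to 194.2 against 661.4 to 827.1, with 6 of 8 higher. Endothelial markers were at 1283 to 1421 CPM against 1564 to 1937, with 3 of 12 higher, Tek, Kdr and Tie1 (678.7 ± 298.1 to 3165 ± 198.9 for Tek), and 1 lower. Epithelial markers were at 582.3 to 687.4 against 460.2 to 606.8, with Krt8, Cdh1 and Scgb3a2 higher and 3 lower. Smooth muscle markers were lower for 5 of 8 genes, at 3768 to 4579 CPM in BSMCs and 2866 to 3273 in SmMCll. The part of these lists in the integrin and adhesion differences was not tested.

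Of these 23 calls, Tns2, Tln1, Zyx, Parvb, Itga2 and Itgb6 were lost in at least 1 alternative. The others held, Itgb7, Itgam, Itgax and Itgae again aside. Tns2 was lost without BSMCs replicates 1 and 3 and each SmMCll replicate (adjusted p 0.0572 to 0.112), and Tln1 without BSMCs replicates 1 and 2 and SmMCll replicates 1 and 3 (0.0636 to 0.136). Zyx was lost without BSMCs replicates 1 and 3 and SmMCll replicates 1 and 2 (0.0527 to 0.074), and Parvb without BSMCs replicates 1 and 3 and SmMCll replicates 1 and 3 (0.0506 to 0.0837). Itga2 was lost without BSMCs replicate 3 (0.0538) and SmMCll replicate 2 (0.0899), and Itgb6 without BSMCs replicate 2 (0.053) and SmMCll replicates 2 and 3 (0.104 and 0.0652). With each library divided by its total, 8 members were higher and 20 lower, where the deposited scaling gave 10 and 13. Itgb1, Itgb5, Fermt2, Itga9, Itga2b, Itga10 and Ilk were the members gained, all lower. Tns2 and Tln1 were lost there (0.0684 and 0.125), after quantile normalization (0.102 and 0.141) and with only the 2 groups compared (0.0615 and 0.07). On implied reads Tns2 (0.0651) and Zyx (0.0983) were lost, and with array weights Itga2 (0.07).

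**Figure D5:**
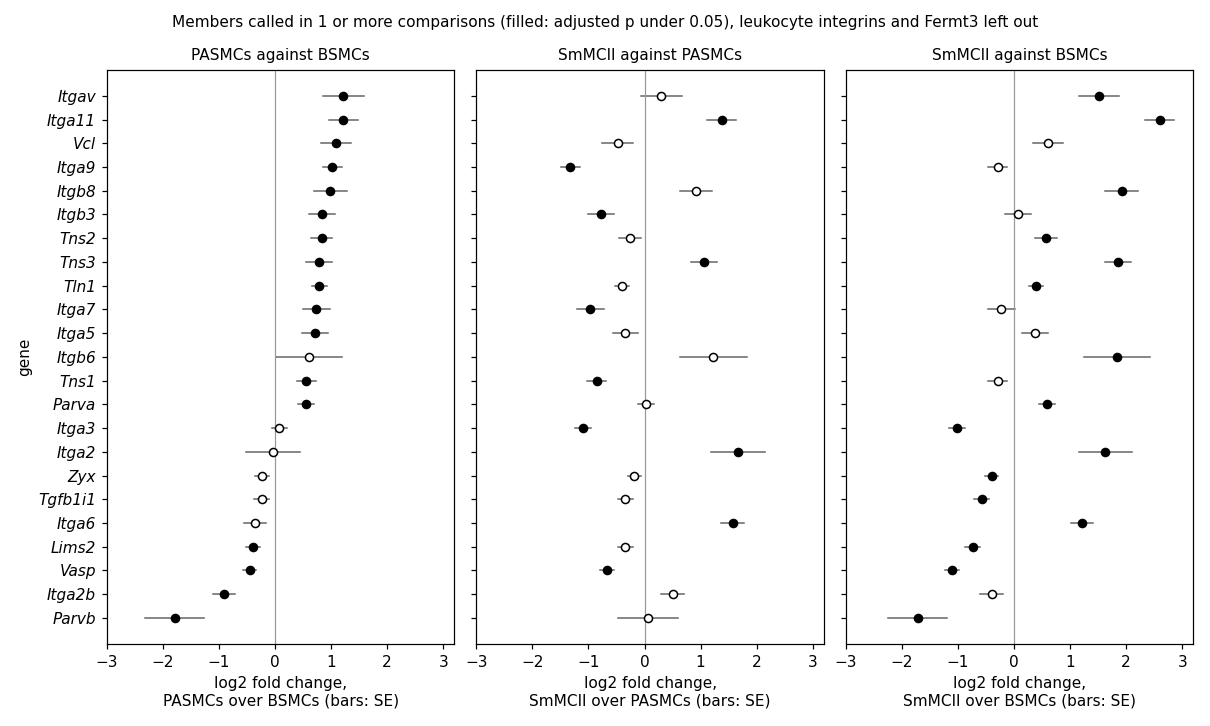
Points give the log2 fold change of each member called in at least 1 comparison, without the leukocyte subunits and Fermt3, with the SE of the fit as bars, and filled points passed an adjusted p under 0.05. Itga9 is right of 0 on the left panel (1.02) and left of 0 on the middle panel (-1.32), while Itga11 and Tns3 are right of 0 on all 3 panels and Vasp is left of 0 on all 3.

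Several members showed no call in the main fit of any comparison, though some were called in alternatives. Fermt2, the kindlin of muscle and other non-blood cells, read 4279, 4304 and 3506 in BSMCs, 4002, 3879 and 3550 in PASMCs and 3427, 2947 and 3433 in SmMCll, with the SmMCll libraries lowest and an interval of -0.55 to -0.05 against BSMCs (adjusted p = 0.0533 by limma). Lims1, the other PINCH adaptor, had intervals of -0.28 to 0.23, -0.26 to 0.25 and -0.29 to 0.22 in the order of the comparisons above. The intervals of Pxn, paxillin, were -0.16 to 0.43, -0.23 to 0.36 and -0.10 to 0.49, and those of Ptk2, focal adhesion kinase, -0.35 to 0.25, -0.08 to 0.53 and -0.13 to 0.48. Bcar1, the scaffold p130Cas, ran from 885 to 1501 over all libraries. Itga1 read 1729, 2632 and 1819 in BSMCs, 2723, 2011 and 2193 in PASMCs and 1438, 1856 and 1864 in SmMCll, with an interval of -0.82 to -0.03 between SmMCll and PASMCs (adjusted p = 0.148). Itga4, a fibronectin and VCAM-1 receptor subunit, ran from 69 to 216, Itgb4 from 111 to 258, Itga10, another collagen receptor subunit, from 18 to 57, and Tln2, the other talin, from 84 to 245. Tln2 was higher in SmMCll than in BSMCs without overlap (log2 0.83, SE 0.31) and only just missed the threshold (adjusted p = 0.05 by limma). The intervals of Itga10 reached from -1.96 to 0.48 over the 3 comparisons, so differences of more than 2-fold lay inside them. Ilk, integrin-linked kinase, was low, at 53, 73 and 82 in BSMCs, 61, 36 and 58 in PASMCs and 46, 34 and 37 in SmMCll. In the GENCODE vM21 annotation 89.7% of its exon bases are also exon bases of Rrp8 or Taf10, and for Itgam 68.7% are shared with Gm49368 and for Itga10 33.5% with Gm42957, so the counted level of these 3 genes is uncertain.

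Among the matrix ligands of integrins, 17 of 30 were higher and 3 lower in PASMCs against BSMCs, with a median log2 fold change of 0.65 against 0.05 for all genes and 22.1% of all genes called. Fibroblast markers were higher too, for 7 of 11 genes (1774 ± 226.6 CPM in BSMCs, 2598 ± 174.9 in PASMCs), and their part in the matrix genes was not tested. Nid1, nidogen, which joins laminin to collagen IV, rose by 1.44 (SE 0.20, adjusted p = 0.000455 by limma), Fn1, fibronectin, the ligand of Itga5, by 1.33 (SE 0.13, adjusted p = 3.76e-05) and Lamc1, a laminin chain, from 1348 ± 151.3 to 3272 ± 257.0 (adjusted p = 2.4e-05). Spp1, osteopontin, fell by 2.25 (SE 0.52, adjusted p = 0.0109), Vtn, vitronectin, a ligand of alpha v integrins, by 2.10 (SE 0.37, adjusted p = 0.00234) and Tgfb1 by 0.85 (SE 0.18, adjusted p = 0.00734). Npnt, nephronectin, the ligand of Itga8, was 3909 ± 1049 in BSMCs, 5912 ± 356.0 in PASMCs and 3828 ± 352.5 in SmMCll (SD, n = 3 each). It was called higher in PASMCs against BSMCs (log2 0.63, SE 0.16, adjusted p = 0.0162) and lower in SmMCll against PASMCs (log2 -0.63, SE 0.16, adjusted p = 0.0173). In SmMCll against PASMCs 6 of 30 matrix ligands were higher, led by the laminin chains Lama2 (1.74, SE 0.17) and Lamb1 (1.72, SE 0.17) and by Fbn1, fibrillin (1.24, SE 0.12), and 3 were lower, Lama5, Npnt and Postn. Against BSMCs 15 were higher in SmMCll, led by Lamb1 (2.98, SE 0.17), Lama2 (2.85, SE 0.17) and Nid1 (2.60, SE 0.20), and 4 were lower, which is 63.3% called against 41.9% of all genes. In both of these comparisons the fibroblast and mesothelial markers given above were higher in SmMCll, and their part was not tested.

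Cell surface ligands were higher in SmMCll than in PASMCs for 6 of 8 genes and lower for 0, among them Icam2 (log2 1.09, SE 0.23), Vcam1, a ligand of Itga4 (from 1989 ± 64.1 to 3988 ± 128.3), and Jam2 (0.93, SE 0.15). Over all genes 9.39% were higher and 6.83% lower there. Endothelial (6 of 12) and mesothelial markers (8 of 8) were higher in the same libraries, and their part was not tested. In PASMCs against BSMCs 1 of 8 was higher and 1 lower, and in SmMCll against BSMCs 4 and 1. Of 14 activators and inactivators, 2 were higher and 4 lower in PASMCs against BSMCs (42.9% against 22.1% of all genes), with Kank2, a talin binding protein, at 1.51 (SE 0.21). In SmMCll 4 were higher and 1 lower against PASMCs (35.7% against 16.2%), and 5 and 3 against BSMCs (57.1% against 41.9%). Rasgrp3 and Rapgef3, exchange factors that switch on Rap1, were higher in SmMCll than in PASMCs by 2.23 (SE 0.26) and 1.41 (SE 0.23).

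Of 34 other adaptors and kinases, 4 were higher and 3 lower in PASMCs against BSMCs, which is 20.6% called against 22.1% of all genes. The counts were 4 and 7 in SmMCll against PASMCs (32.4% against 16.2%) and 8 and 12 in SmMCll against BSMCs (58.8% against 41.9%). The adaptor Crkl (1.47, SE 0.26) and its downstream exchange factor Dock1 (1.16, SE 0.26) led the genes higher in PASMCs than in BSMCs. The LIM protein Tes (-1.24, SE 0.16) and Sorbs2 (-1.18, SE 0.24) led those lower in SmMCll than in PASMCs. Actin linkers were 4 higher and 0 lower of 20 in PASMCs against BSMCs, 20.0% against 22.1% of all genes, among them the filamin Flnc (1.27, SE 0.28). In SmMCll against PASMCs (40.0% against 16.2%) 2 were higher, among them Ezr (1.32, SE 0.20), and 6 were lower, led by Actn1, an alpha-actinin (-1.12, SE 0.13), Enah, a relative of Vasp (-1.08, SE 0.23), and Palld (-0.85, SE 0.10). In SmMCll against BSMCs (65.0% against 41.9%) 5 were higher, among them Ezr (1.79, SE 0.20), and 8 lower, among them Actn1 (-1.34, SE 0.13). Lists were chosen with results of these data known, and their counts are descriptions.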

How the data were processed

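RNA of sorted cells, up to 10 ng per library, was amplified with SMART-Seq v4, per the labels' protocols. The submitters' processing notes name DESeq2 1.36.0, featureCounts 2.0.4, STAR 2.7.11a, Trimmomatic 0.39, Picard 3.1.1 and build mm39, without saying what each was used for. The deposited values are whole numbers scaled between libraries by the authors, a normalized score per gene and not raw counts, so no count model was the test. Values were taken as log2(value + 1) and fitted with limma 3.58.1 in R 4.3.3 (robust empirical Bayes with a mean trend, all 9 libraries, 3 groups), over the 15647 genes that reached 10 in 3 or more libraries. The Benjamini-Hochberg adjustment ran over all of them, and an adjusted p under 0.05 was called. A fold change is therefore on the log2(value + 1) scale and understates that of low genes. With 3 libraries a group, and no statement that they are separate animals, p-values weigh a difference only against the spread between these samples. Totals were 7.98 to 9.41 M normalized reads, and no 2 libraries were copies of each other. Implied reads were read from the spacing of the values and used only for depth and 1 alternative. Exon lengths for levels per kb came from GENCODE vM21 and cover 96.7% of genes. Promoter windows came from RefSeq, GRCm38.p6. All members could be named, with full statistics for called and for abundant ones. Of each pathway list up to 3 called genes a direction with a mean of at least 100 were named. The members and lists were chosen with earlier results of these data known. Alternatives were the pseudocount, the filter, the groups fitted, the scaling, the replicate block, array weights and leaving out each library. A few genes of the marker and pathway lists are counted but not reported here by name.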

Additional observations from a re-analysis of the deposited data

How the results depend on the processing

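No called member changed sign under any of the 18 alternatives. Called members numbered 24, 11 and 23 for PASMCs against BSMCs, SmMCll against PASMCs and SmMCll against BSMCs. With only the 2 groups compared in the fit, the first became 15 and the second 22, and array weights gave 22 for the second. Leaving out each library in turn gave 12 to 26, 7 to 16 and 19 to 25. Over all genes the counts were 3451, 2539 and 6553. They became 1926 and 4345 for the first and the second comparison with only the 2 groups, and 5082 for the second with array weights. Leaving out each library gave 1724 (without PASMCs replicate 1) to 6698 (without BSMCs replicate 2), 1679 (without SmMCll replicate 2) to 3219 and 4373 to 8370 genes. The cause of these shifts was not tested. Array weights were 0.286 to 0.714 in BSMCs, 0.932 to 1.55 in PASMCs and 1.07 to 3.94 in SmMCll. Scaling moved the split of higher and lower members. PASMCs against BSMCs had 13 higher and 11 lower as deposited, 10 and 13 after quantile normalization and 10 and 7 on implied reads. SmMCll against PASMCs had 5 and 6 as deposited, 4 and 9 after quantile normalization or division by the library total, and 3 and 6 on implied reads. SmMCll against BSMCs had 10 and 13 as deposited, 8 and 19 after quantile normalization and 8 and 20 after division by the total. With replicate number as a block, 21, 11 and 24 members were called. The numbers did not pair the samples: the deviations of 9 same-numbered pairs correlated at -0.12 to 0.14, 1 of them over 0.1, and 3 of 18 library and group combinations matched best with their own number. Depth limits the low members: differences for Itga2, Itgb6, Parvb and Itga10 rest on values mostly under 100.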
